A study of Arabidopsis thaliana with 6 samples.

Results

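The morning clock genes described here are 9 Arabidopsis loci: the MYB transcription factor genes CCA1 (AT2G46830) and LHY (AT1G01060), the REVEILLE genes RVE1 (AT5G17300), RVE2 (AT5G37260), RVE4 (AT5G02840), RVE6 (AT5G52660) and RVE8 (AT3G09600), and the coactivator genes LNK1 (AT5G64170) and LNK2 (AT3G54500). They were chosen by locus identifier, with earlier results of these data known. All 9 were among the 32627 loci on the array, with 15 of its 37118 transcript models. RNA came from roots of Arabidopsis thaliana grown for 12 days on medium with Murashige and Skoog salts at reduced strength. The shoots of both groups were lit with white light at 75 µmol m-2 s-1. In the dark group (3 arrays) the roots were kept dark, which the labels call the treatment, and in the light group (3 arrays) the roots were lit as well, which they call the control. Each array was hybridised with Cy3-labelled cDNA from plants of a separate plate. The sources used here do not state the ecotype, the photoperiod or the hour of harvest.

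The plant circadian clock is a set of transcription factors that repress and activate each other in turn over the day. CCA1 and LHY, whose transcripts peak around dawn, encode related MYB proteins that repress genes expressed later in the day, in many cases through a promoter sequence called the evening element. RVE8, RVE4 and RVE6 bind the same element and activate such genes, and LNK1 and LNK2, which lack a DNA-binding domain of their own, are recruited by RVE proteins as coactivators. The pseudo-response regulators PRR9, PRR7 and PRR5 repress CCA1 and LHY during the day, and ELF3, ELF4 and LUX form a repressor complex in the evening. In roots, the clock is known to receive timing information from the shoot.

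Values are log2 expression values as deposited, which run from 4.7 to 15.92 with a median of 11.84. They are not comparable between probes, so levels of different genes are not ranked, and a difference near the top of the scale can be compressed. Differences are dark minus light with limma's moderated standard error (SE). P-values carry a Benjamini-Hochberg adjustment across the 37118 models, and an adjusted p under 0.05 counts as passing. The model with the highest mean stands for a locus with several, and whether models of 1 gene share probes was not tested. Light replicate 3 lay apart from the other light arrays on the second principal component (45.3, against -37.2 and -34.8), and results are also given without it. Dark replicate 3 was the highest dark array on that component (27.4, against 10.3 and -11.1). The transcription factor genes HYH and HY5, which act downstream of light perception, were lower on every dark array than on any light array, by differences of -2.11 (SE 0.16, adjusted p = 0.00266 in limma) and -1.07 (SE 0.09, adjusted p = 0.00326 in limma).

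Of the 9 morning loci, 4 rose in dark roots (CCA1, LHY, RVE8 and LNK2), none fell and 5 did not pass limma's test, where 2.46% of all loci rose and 3.27% fell. The 9 were chosen with earlier results of these data known, so setting these counts beside all loci is not a test of the set. The rising loci were 1.54 to 2.41 times as high in dark roots as in light roots. The median difference of the 9 was 0.42, against 0.01 over all loci. In 5 of the 9, every dark array lay above every light array, as it did in 16.2% of all loci, and in none did every dark array lie below every light array (12% of all loci). Of the 15 transcript models, 5 rose and none fell, against 2.43% and 3.22% of all models. Without light replicate 3, 2 of the 9 loci rose, LHY and LNK2, and without any 1 array 1 or 2 did. Calls were lost over the whole array as well. Of all 37118 models, 903 were higher in dark with every array, 473 without light replicate 3, and 158 to 473 without any 1 array.

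CCA1 was higher in roots kept dark. Its values were 10.89, 10.59 and 11.05 in dark roots, against 9.49, 9.94 and 9.30 in light roots. The lowest dark array lay 0.65 above the highest light array, which was light replicate 2. The means were 10.84 ± 0.23 in dark and 9.58 ± 0.33 in light (SD, n = 3 each), a rise of 1.27 (SE 0.20), or 2.41-fold, with adjusted p = 0.0261 in limma. Only 0.493% of all loci had a larger rise. The call was kept in 1 of the 6 fits that left out an array, the one without light replicate 2, with differences from 1.13 to 1.45 and adjusted p from 0.0316 to 0.106. Without light replicate 3 the difference was 1.13 and adjusted p = 0.0625 in limma.

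LHY, whose product is partly redundant with CCA1, had 2 models on the array. The brighter model read 11.95, 11.43 and 11.67 in dark roots, against 10.60, 10.68 and 10.31 in light roots. The groups were separated by 0.75, and light replicate 3 was the lowest array, as it was for CCA1. LHY averaged 11.68 ± 0.26 in dark and 10.53 ± 0.19 in light (SD, n = 3 each), a rise of 1.15 (SE 0.17), or 2.22-fold, with adjusted p = 0.0201 in limma. Leaving out single arrays gave differences from 1.02 to 1.28, and the call was kept in 2 of 6 such fits, those without dark replicate 2 and without light replicate 3. The other model, model 3, lay in the dimmest of 10 equal signal classes, where it read 6.30, 5.93 and 6.04 in dark roots, against 6.50, 5.98 and 5.22 in light roots. The groups of model 3 overlapped, with a difference of 0.19 (95% interval -0.62 to 1.00).

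For the brighter LHY model, the value of CCA1 minus LHY on the same array overlapped between groups. It was -1.06, -0.84 and -0.62 in dark roots and -1.11, -0.74 and -1.01 in light roots. This within-array difference changed by 0.11 between the groups, with overlapping arrays (exact permutation test, two-sided, p = 0.6; the smallest p that 3 against 3 arrays allow is 0.1). Without any 1 array the change ranged from 0.0033 to 0.22. With the mean of both LHY models, the dim one included, it was 0.60 with no overlap (1.77 to 2.20 in dark roots and 0.94 to 1.61 in light roots, exact permutation p = 0.1). Such a difference compares changes of the genes and not their levels.

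**Figure D1:**
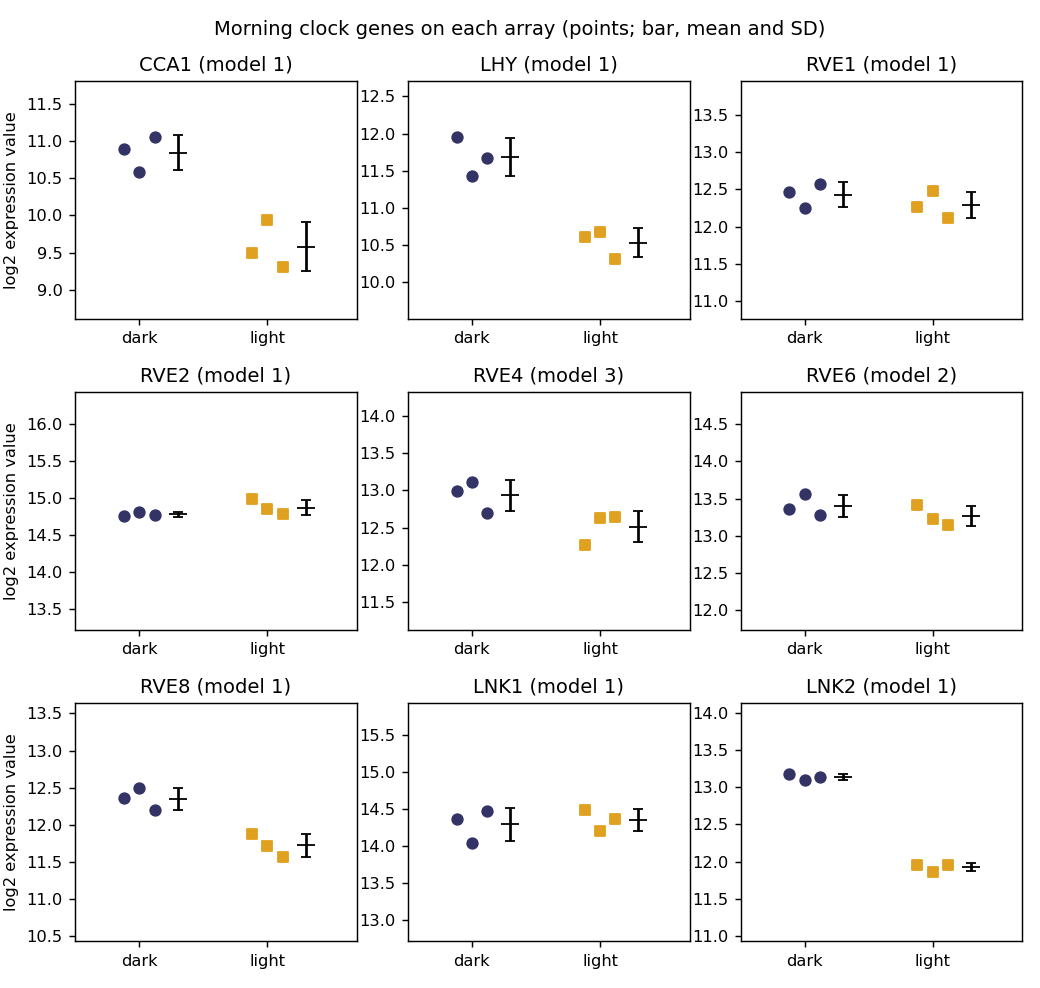
log2 expression value (vertical axes, each spanning the same range) of the brightest transcript model of each of the 9 morning clock genes on the 3 dark and 3 light arrays, with the mean and SD beside the points. CCA1, LHY, RVE4, RVE8 and LNK2 have every dark array above every light array, and the groups of the other 4 genes overlap.

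Of the 5 REVEILLE genes, RVE8 rose and the other 4 did not pass limma's test. RVE8 read 12.36, 12.49 and 12.20 in dark roots, against 11.88, 11.72 and 11.57 in light roots. The lowest array was again light replicate 3, and the groups were 0.32 apart. RVE8 averaged 12.35 ± 0.15 in dark and 11.72 ± 0.16 in light (SD, n = 3 each), a rise of 0.63 (SE 0.12), or 1.54-fold, with adjusted p = 0.0432 in limma. It lost the call in all 6 fits without an array, with differences of 0.55 to 0.71 and adjusted p from 0.0641 to 0.149. Its second model read 10.26, 10.35 and 10.03 in dark roots and 9.64, 9.40 and 8.97 in light roots. That model differed by 0.88 (SE 0.19) without overlap, but missed the threshold (adjusted p = 0.0623 in limma). It passed in 3 alternative fits, with models under the 25th percentile of signal removed (limma adjusted p = 0.0362), with a robust, signal-dependent variance (0.0312) and with array weights (0.0472). In 0 of the 6 fits without an array did it pass.

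RVE4, called LCL1 in the RefSeq gene table, is a close relative of RVE8. Its brightest model, model 3, read 12.99, 13.11 and 12.70 in dark roots, against 12.27, 12.63 and 12.64 in light roots. The groups were 0.06 apart, and the difference of 0.42 (SE 0.16) did not pass (adjusted p = 0.204 in limma). Model 1 read 12.92, 13.14 and 12.70 in dark roots, against 12.33, 12.13 and 12.42 in light roots. Model 1 differed by 0.63 (SE 0.14) and also missed the threshold (adjusted p = 0.0685 in limma). It passed in 4 alternative fits, with dim models removed at either of 2 levels (adjusted p = 0.0387 and 0.0152), with a robust, signal-dependent variance (0.0161) and with array weights (0.0494). Model 1 passed in 0 of the 6 fits without an array (limma adjusted p from 0.0813 to 0.198), nor did it with a replicate block (0.165). Model 2, in class 3 of those 10 classes from the dimmest, had overlapping groups, with means of 8.21 ± 0.46 in dark and 8.37 ± 0.70 in light (SD, n = 3 each).

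RVE6, the third activator of this branch, had 2 models with overlapping groups. Model 2 read 13.36, 13.56 and 13.28 in dark roots, against 13.42, 13.23 and 13.15 in light roots. The difference was 0.13 (95% interval -0.15 to 0.42, adjusted p = 0.598 in limma), and that of model 1 was 0.11 (95% interval -0.14 to 0.35). The difference between RVE6 and RVE8 on the same array separated the groups. RVE6 minus RVE8 was 1.00, 1.07 and 1.08 in dark roots and 1.54, 1.51 and 1.58 in light roots, a change of -0.49 with no overlap (exact permutation test, two-sided, p = 0.1, the smallest possible). RVE4 minus RVE8 was 0.63, 0.62 and 0.50 in dark roots and 0.39, 0.91 and 1.07 in light roots, with overlap (exact permutation p = 0.4). Its change of -0.21 became -0.46 without overlap when each gene's models were averaged, the dim RVE4 model 2 included (exact permutation p = 0.1). RVE4 model 1 and RVE8 model 1 each differed by 0.63, so an unequal change of this pair depends on the model chosen. By the brightest models the change of RVE4 minus RVE8 ranged from -0.41 to -0.07 without any 1 array, with -0.07 without light replicate 3.

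RVE1, which promotes auxin synthesis by day, and RVE2, also called CIR1, showed overlapping groups. RVE1 read 12.46, 12.25 and 12.58 in dark roots, against 12.27, 12.48 and 12.12 in light roots, a difference of 0.14 (95% interval -0.19 to 0.47, adjusted p = 0.641 in limma). RVE2 read 14.75, 14.81 and 14.77 in dark roots, against 14.98, 14.85 and 14.78 in light roots, a difference of -0.09 (95% interval -0.29 to 0.11, adjusted p = 0.6 in limma). The upper end of the RVE1 interval and both ends of the RVE2 interval lie below the differences of CCA1, LHY and LNK2. RVE1 minus RVE2 changed by 0.23 between the groups, with overlap (exact permutation p = 0.2). RVE2 lies above the upper quartile of all values, 14.09.

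**Figure D2:**
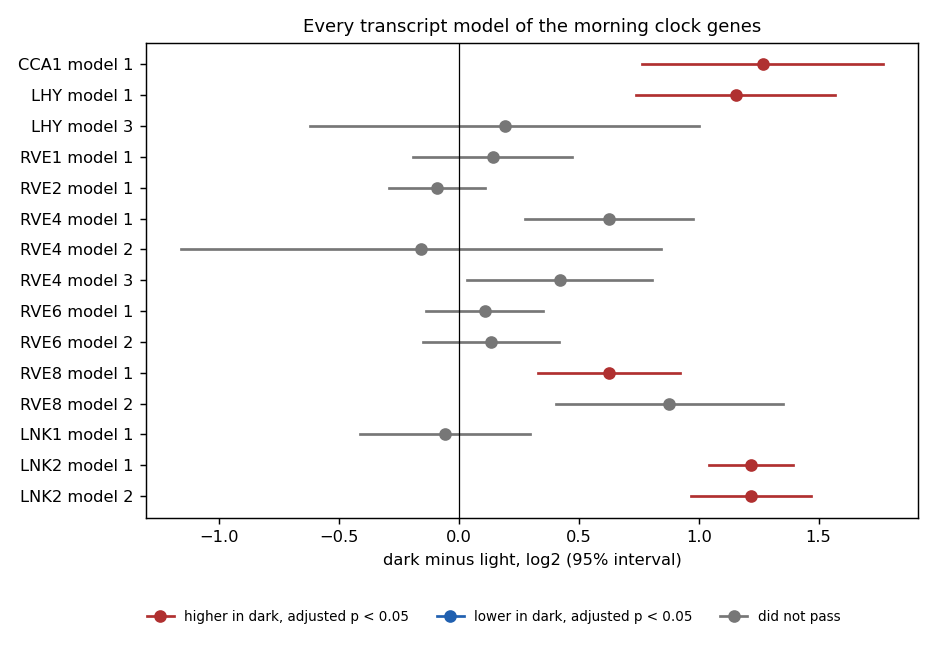
Dark minus light difference on the log2 scale (horizontal axis) with its 95% interval from limma for all 15 transcript models of the 9 genes. The 5 models that rose are CCA1 model 1, LHY model 1, RVE8 model 1 and both models of LNK2, and the widest intervals belong to LHY model 3 and RVE4 model 2, which are dim.

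The coactivator gene LNK2 gave the lowest p of the 9 genes. It read 13.18, 13.10 and 13.14 in dark roots, against 11.95, 11.86 and 11.96 in light roots. The groups were 1.14 apart, and the spread within groups (pooled SD 0.05) was below the median of models of like signal (0.13). LNK2 averaged 13.14 ± 0.04 in dark and 11.92 ± 0.06 in light (SD, n = 3 each), a rise of 1.22 (SE 0.07), or 2.32-fold, with adjusted p = 0.00119 in limma. It was number 7 by p among all models higher in dark. The second model read 10.71, 10.92 and 10.83 in dark roots and 9.75, 9.54 and 9.52 in light roots, and it rose by the same 1.22 (SE 0.10, adjusted p = 0.00347 in limma). In every fit without an array both models passed, with differences from 1.17 to 1.29 and adjusted p of at most 0.0236.

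LNK1, which acts with LNK2 on RVE-bound promoters, did not pass the test. It read 14.37, 14.04 and 14.47 in dark roots, against 14.49, 14.20 and 14.37 in light roots. The groups overlapped, and the difference was -0.06 (95% interval -0.41 to 0.29, adjusted p = 0.875 in limma). LNK1 minus LNK2 was 1.19, 0.94 and 1.33 in dark roots and 2.54, 2.34 and 2.41 in light roots. This within-array difference changed by -1.28 with no overlap (exact permutation test, two-sided, p = 0.1, the smallest possible), and it ranged from -1.37 to -1.17 without any 1 array. LNK1, like RVE2, lies above the upper quartile of all values on average in both groups. The 5 within-array differences named here were all that were computed, and p-values adjusted over them cannot reach the threshold.

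**Figure D3:**
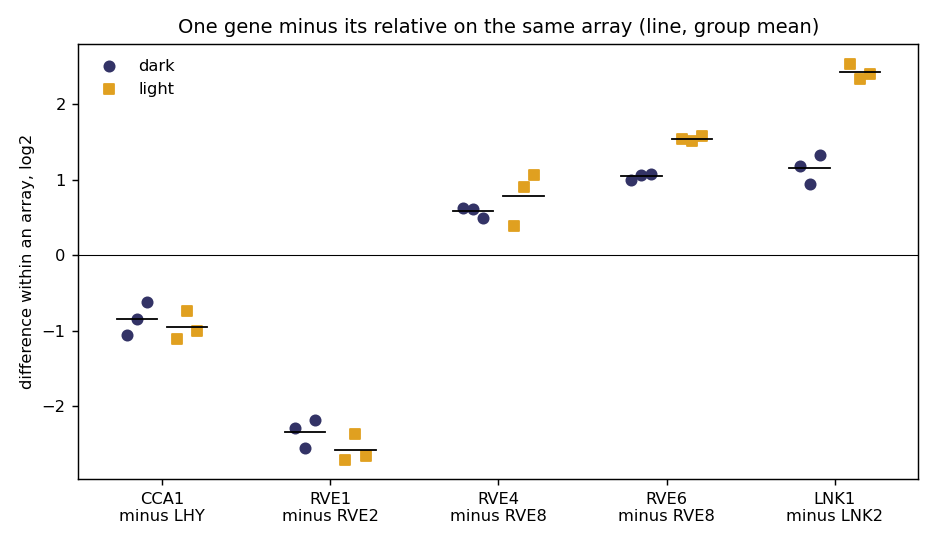
Value of 1 gene minus that of its relative on the same array, each by its brightest model (vertical axis, log2) for 5 pairs, with 3 dark and 3 light arrays each and a line at the group mean. LNK1 minus LNK2 and RVE6 minus RVE8 are lower on every dark array than on any light array, and the other 3 pairs overlap.

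Of 5 further REVEILLE and LNK genes, 1 rose in dark roots (LNK4), none fell and 4 did not pass, with a median difference of 0.28. Over all loci 2.46% rose and 3.27% fell. LNK4, a smaller member of the LNK family, read 11.81, 11.92 and 12.11 in dark roots, against 10.81, 10.86 and 10.98 in light roots. Its arrays did not overlap, and it rose by 1.06 (SE 0.10, adjusted p = 0.00595 in limma), a call kept in all 6 fits without an array. LNK3 read 10.39, 10.29 and 11.01 in dark roots and 10.10, 10.00 and 10.01 in light roots, a difference of 0.53 (SE 0.20) that did not pass (adjusted p = 0.21 in limma). AT4G01280 differed by 0.28 (adjusted p = 0.082 in limma), and RVE7 by -0.25 with overlapping groups (adjusted p = 0.481 in limma).

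Among 18 day and evening clock genes, ELF4 fell in dark roots, none rose and 17 did not pass, with a median difference of -0.01. The shares over all loci were 3.27% lower and 2.46% higher. ELF4, of the evening repressor complex, read 14.76, 14.93 and 14.84 in dark roots, against 15.39, 15.57 and 15.37 in light roots. It fell by 0.60 (SE 0.09, adjusted p = 0.0230 in limma), with the light values near the top of the scale. The ELF4 call was lost in 5 of the 6 fits without an array, all but the one without light replicate 3, with adjusted p from 0.0483 to 0.098. PRR9, the first of the pseudo-response regulators to be expressed after dawn, read 10.28, 10.25 and 10.97 in dark roots, against 11.76, 11.51 and 11.22 in light roots. All 3 dark arrays of PRR9 lay below the light arrays, and its difference of -0.997 (SE 0.24) missed the threshold (adjusted p = 0.0826 in limma).

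PRR7 read 15.30, 15.23 and 15.16 in dark roots, against 14.82, 14.86 and 14.94 in light roots. Its difference was of the other sign, 0.36 (SE 0.08, adjusted p = 0.06 in limma), without overlap. LKP2, which encodes an F-box photoreceptor of the ZTL family, differed by 0.28 (adjusted p = 0.0715 in limma). PRR5, TOC1 and GI, all expressed later in the day and known targets of the RVE8 branch or of CCA1, differed by -0.21, -0.03 and 0.03. The other partners of ELF4 in the evening complex, ELF3 and LUX, differed by -0.02 and -0.28, and none of these 5 passed. The dimmer LUX model differed by 0.03 with overlapping groups. TOC1, ELF3, PRR5 and PRR7 lay near the top of the scale in both groups.

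**Figure D4:**
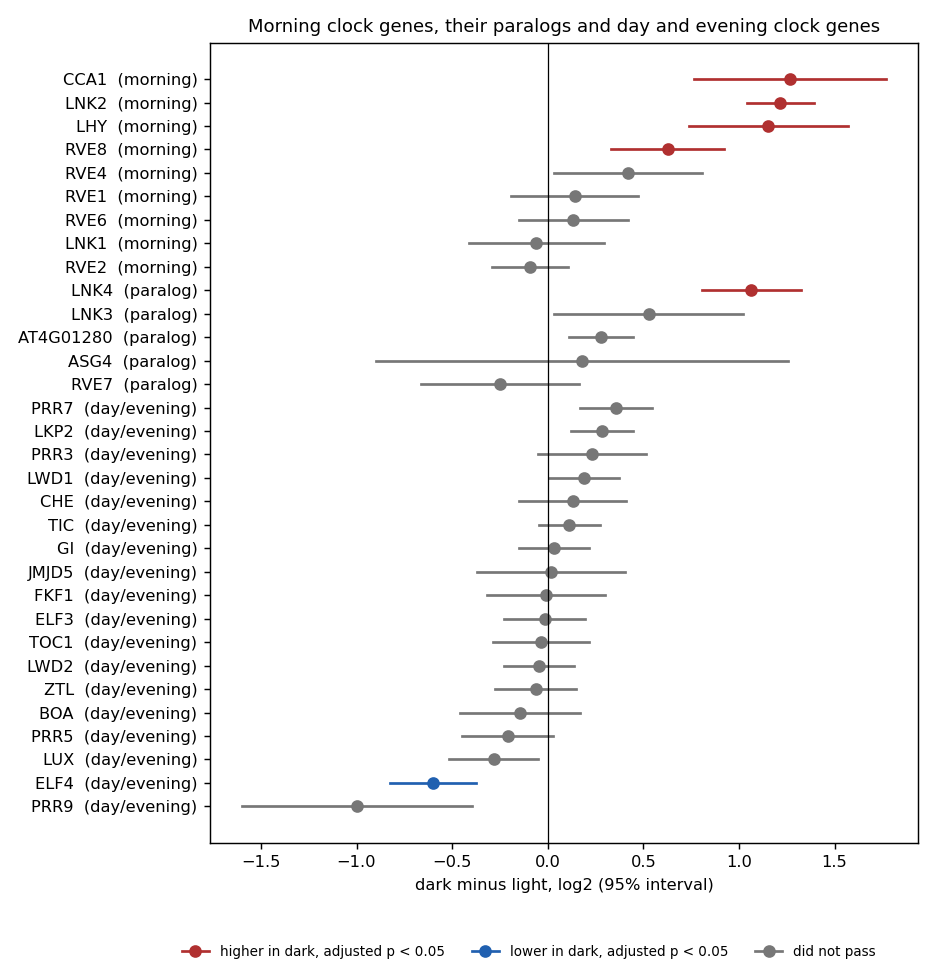
Dark minus light difference on the log2 scale (horizontal axis) with its 95% interval for the 9 morning genes, 5 REVEILLE and LNK paralogs and 18 day and evening clock genes. Among the 32 genes, CCA1, LHY, LNK2, RVE8 and LNK4 rose and ELF4 fell.

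Of 18 clock output genes, PIF4 rose in dark roots, none fell and 17 did not pass, with a median difference of 0.13. The shares over all loci were 2.46% higher and 3.27% lower. PIF4, a growth-promoting bHLH factor gene whose transcription the evening complex represses, read 9.22, 9.12 and 8.60 in dark roots, against 7.40, 7.65 and 6.96 in light roots. It rose by 1.64 (SE 0.24, adjusted p = 0.0202 in limma), a call kept in 3 of the 6 fits without an array (adjusted p from 0.0343 to 0.0875). The light values lay around 7.61, the lower quartile of all values, so the size of the PIF4 rise is uncertain. Its relative PIF5 differed by 0.84 in the brighter of its models (adjusted p = 0.107 in limma) and rose by 1.097 in the other (adjusted p = 0.0263 in limma). That other model read 7.76, 7.67 and 7.75 in light roots, also near the lower quartile, so the size of its rise is uncertain too. The flowering regulator gene CO differed by 0.60 without overlap in its brighter model, short of the threshold (limma adjusted p = 0.0921). The other CO model differed by 0.37 with overlapping groups (limma adjusted p = 0.321). AT1G69570 did not pass either (adjusted p = 0.0788 in limma), and it lay under the lower quartile of all values, 7.61, on all 6 arrays, so the size of its difference is uncertain.

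Of 12 light input genes, HYH and HY5 fell and 10 did not pass, with a median difference of -0.02. Over all loci 3.27% fell and 2.46% rose. SPA1, whose product acts with COP1 to remove HY5, had every dark array below every light array, with a difference of -0.42 (adjusted p = 0.0504 in limma). The photoreceptor genes CRY1, PHYA, PHYB and CRY2 differed by 0.14, 0.06, -0.06 and 0.02. All of them lay above the upper quartile of all values, 14.09, in both groups, and differences near the top of the scale can be compressed.

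Among 10 root genes, none passed limma's test and 2 had an unadjusted p under 0.05, as did 21.2% of all loci. In 4 of the 10 every dark array lay above every light array (16.2% of all loci). In none did every dark array lie below (12% of all loci). These comparisons cannot check the root label, since both groups carry it. The mean over these genes was 13.65 to 13.81 on dark arrays and 13.59 to 13.60 on light arrays. The endodermis regulator genes SCR and SHR, with the lowest p of the list, differed by 0.34 and 0.25. WOX5 and RHD6 differed the other way, each by -0.11, and CASP1 differed by 0.03, all 3 with overlapping groups. Of 11 shoot, stomata and cuticle genes, which could mark carried-over shoot tissue, STM rose by 0.84 (adjusted p = 0.0202 in limma) and 10 did not pass. Over all loci 2.46% rose. The STM call was kept in 1 of the 6 fits without an array (adjusted p from 0.0319 to 0.0894). Their mean was 10.38 to 10.49 on dark arrays and 10.36 to 10.41 on light arrays. Of these, 4 stayed under 7.61, the lower quartile of the scale, on all 6 arrays: STM, MUTE, FAMA and KAT1. SPCH averaged 7.37 in dark and 7.45 in light. The cuticle and epidermis genes FDH, PDF1, CER3, CER1, LTP1 and ATML1 were brighter, with group means from 11.54 (ATML1, light) to 15.36 (FDH, dark). Their differences went in both directions, from -0.69 (LTP1) to 0.33 (ATML1), with CER3 at -0.28. Whether shoot tissue was carried over was not tested. The part of other cell types in the morning gene differences was not tested, and in bulk root RNA fewer cells of a type cannot be told apart from less RNA per cell.

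The loci most like CCA1 and LHY were sought by the root mean square difference over the 6 arrays, after subtracting each gene's own light mean. LHY was number 10 of all loci in likeness to CCA1 (0.19) and LNK2 number 32 (0.25), while RVE8 was number 982. In likeness to LHY, CCA1 was number 23 and LNK2 number 26. The measure takes in the size of the rise, so these ranks partly restate the differences given above. Outside the 9 genes, the nearest to CCA1 were AT1G55410 (0.14), AT3G04360 (0.16), AT4G37220 (0.16), the lanosterol synthase gene LAS1 (0.16) and AT3G28945 (0.17). Nearest to LHY were LAS1 (0.09), AT3G05155 (0.09), AT4G09130 (0.10), AT1G49030 (0.10) and AT1G55410 (0.10). Each rose in dark roots by 1.11 to 1.36, which the measure of likeness selects for.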

How the data were processed

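The authors deposited log2 expression values from one-colour NimbleGen arrays (Cy3), and the submitters' processing notes name limma without a version. The 6 arrays share 1 distribution (sorted values differ by at most 0.01), which quantile normalization before deposit gives. The sources used here do not state the background correction, probe summary or annotation release. No transformation was added. Arrays have no read depth, and their number, 3 per group, limits the precision. P-values measure the spread between plates.

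The dark minus light fit used limma 3.58.1 (R 4.3.3; lmFit and eBayes, two-sided) without covariates and was checked on simulated data. The text names the 9 loci and their models, 10 clock and light genes always included, up to 4 genes of lowest p per list, and the 5 loci nearest in profile to CCA1 and to LHY. PIF5 model 1, the other models of CO and LUX, the root genes WOX5, RHD6 and CASP1, and genes flanking the 9, were added after their values were seen. The genes and 6 further lists were chosen with earlier results of these data known. Symbols are in common use and match a symbol or synonym of RefSeq for TAIR10.1, except RVE6, which is named there by locus only. No coordinates or sequences are given, since the array's build is not stated and no sequence table was used. Alternatives were 2 filters, 2 scalings, a variance prior, array weights, a replicate block, a stricter threshold, the mean of a locus' models and leaving out each array. Figures used matplotlib 3.10.9 in Python 3.11.15.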

Additional observations from a re-analysis of the deposited data

How the results depend on the processing

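A second quantile normalization and median centring could change nothing, since the arrays already share 1 distribution. Over the 9 genes, 4 rose with the 25th percentile filter, with a trend and robust prior and with array weights. With models under the median signal removed 2 rose, since that filter removes CCA1 and LHY. With the mean of a locus' models 2 rose (CCA1 and LNK2), with a threshold of 0.01 1 rose (LNK2), and with a replicate block 1 rose (LNK2). Without any 1 array 1 to 2 rose. LNK2 was called in all of these. The numbers were not taken as pairs: deviations from the group means correlated at 0.01, 0.06 and 0.41 between same-numbered arrays. The 0.41, between the arrays numbered 3, was the highest of all. Differently numbered arrays reached 0.36 (dark 2 with light 1) and -0.40 (dark 3 with light 1). Over all models, 903 were higher and 1196 lower in dark. These became 290 and 668 with the replicate block, 1879 and 1852 with the trend and robust prior, 115 and 491 at 0.01, and 158 to 473 and 607 to 905 without any 1 array. The 25th percentile filter gave 1627 higher and 1588 lower and the median filter 1596 and 1314, so that more models were higher than lower. Among differences that did not pass, LHY model 3 was -0.15 without light replicate 3, RVE4 model 2 was 0.10 without dark replicate 1 and 0.18 without light replicate 2, and LNK1 was 0.0667 without dark replicate 2 and 0.0083 without light replicate 1. Without any 1 array LHY model 3 ranged from -0.15 to 0.49, RVE4 model 2 from -0.52 to 0.18 and LNK1 from -0.15 to 0.07. The paralog list had 2 higher with the 25th percentile filter or the prior. The day and evening list had 2 higher and 2 lower with the 25th percentile filter or the prior, 2 higher with the median filter, 1 higher and 2 lower with array weights, and 0 lower with the replicate block, at 0.01, and 0 to 1 lower without any 1 array. The output list had 0 higher with the median filter or at 0.01, and 0 to 1 without any 1 array. The root list had 1 higher with either filter or the prior. The shoot list had 0 higher with either filter, the prior, the replicate block or at 0.01, and 0 to 1 without any 1 array. The light input list had 3 lower with either filter, the prior or array weights and 2 in the other fits. The cause of these changes was not tested, other than the removal of genes by the filters.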

Other observations

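The nearest genes on the array to either side of each of the 9 morning loci were read as well, after the other values were seen. Their order was that of the TAIR10.1 gene table, with genes not on the array passed over. Of these 18 neighbours, 2 passed limma's test and both fell in dark roots, against 3.27% of all loci. AT5G52670, next to RVE6, read at a mean of 8.63 in dark roots and 11.90 in light roots, a fall of 3.27 on the log2 scale (adjusted p = 0.00105 in limma). RVE6 itself differed by 0.13. PSI-P (also CURT1B), a thylakoid protein gene next to CCA1, averaged 10.94 in dark roots and 11.48 in light roots, a fall of 0.53 (adjusted p = 0.0251 in limma), opposite in sign to the rise of CCA1. The neighbours of LHY, LNK2 and RVE8 did not pass.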
